A study of Capra hircus with 90 samples.

Results

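The ventral respiratory column (VRC) was compared with the retrotrapezoid nucleus (RTN) of the same goat in room air, in 24 of the 90 brainstem libraries of the study. These were 6 goats kept 24 h in room air and 6 other goats kept 7 d in room air, each with 1 VRC and 1 RTN library. The labels do not state that a replicate number marks the same goat at each site. The libraries were paired by that number, and "goat" below means such a pair. A gene was taken as differing between the sites where it passed an adjusted p of 0.05 with the same sign in both room-air groups. The same difference was then read in the 36 VRC and RTN libraries of 18 goats that had breathed CO2. The animals were adult, outbred, female goats of at least 2 years, from Alpine, Saanen, Toggenburg and other breeds, assigned at random to 3 h, 24 h or 7 d of 6% inspired CO2 or to 24 h or 7 d of room air. Punches were cut from frozen sections with a tube of 1.8 mm. VRC tissue came from 2 to 4 mm in front of the obex, where the central canal opens, and was aimed to hold the pre-Bötzinger complex and the nucleus ambiguus. RTN tissue came from 8 to 10 mm in front of it, and another site, the nucleus of the solitary tract (NTS) at 0 to 2 mm, served only to place the levels. The 24 h room-air goats were extracted and sequenced with the 3 h and 24 h CO2 goats in a first batch, and both 7 d groups in a second. The room-air groups thus differ in batch, in time housed and in animals, and these cannot be told apart.

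The VRC is a column of the ventrolateral medulla that generates the breathing rhythm and holds premotor neurons of the respiratory muscles and motor neurons of the upper airway. The RTN lies near the ventral surface below the facial motor nucleus, and its glutamatergic neurons respond to CO2 and protons and drive the VRC. The comparison describes how the transcripts of these neighbouring parts of the respiratory network differ at rest. A bulk punch also holds glia, vessels and neighbouring nuclei, and in it fewer cells of a type and less RNA per cell cannot be told apart.

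The count table held 25144 goat genes, of which 16270 passed the filter on low counts. The 24 room-air libraries held 12.3 to 34.46 M counts (median 22.72), and the 36 CO2 libraries 5.457 to 31.97 M counts. The first principal component of the 60 VRC and RTN libraries, with 14% of the variance, placed all VRC libraries (-36.8 to -11.1) apart from all RTN libraries (-3.69 to 45.2). The RTN libraries nearest to the VRC on it were replicate 2 after 24 h of CO2, replicate 1 after 3 h of CO2 and replicate 3 of 7 d room air, and these were also the RTN libraries with the least PRPH (27.4, 28.5 and 25.4 CPM, TMM-normalised counts-per-million). The RTN library farthest from the VRC, replicate 5 after 3 h of CO2, held the most PRPH, 960.8 CPM. PRPH is itself among the genes of this component and differs widely between the sites, so this match is in part built in. Between the extremes the orders matched less. Counted from the lowest of the 30 RTN libraries, replicate 4 of 24 h room air ranked 4 by PRPH and 11 on the component. Without replicate 3 of 7 d room air the shared genes described below numbered 1069.

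Symbols were known for 235 of the tested genes. All of these were picked by the authors for a response to CO2 in the libraries of this study, many of them in NTS libraries alone. The named genes are thus not a sample of the site differences. Of them, 95 stand in the 24 h VRC table that the authors deposited, which uses the VRC libraries of 24 h room air. The listed RTN neuron markers and VRC markers carry no symbol in the sources used here, so the site labels could not be set against them. CPM compares the same gene between groups and never levels of different genes.

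In room air, VRC and RTN differed in a large share of their genes, in both directions, and most of the large differences were lower in the VRC. In 24 h room air, 3021 of the 16270 genes passed (18.6% by edgeR), 1458 higher (8.96%) and 1563 lower (9.61%) in the VRC. In 7 d room air 2731 passed (16.8%), 1318 higher (8.1%) and 1413 lower (8.68%). Both groups called 1331 genes with the same sign (8.18% of those tested), 572 higher in the VRC (3.52%) and 759 lower (4.67%). These are 44.1% of the calls of 24 h room air and 48.7% of those of 7 d room air, and 3 further genes passed in both with opposite signs. Over all tested genes, called or not, 68.3% had the same sign in both groups. Without replicate 1 of 24 h room air 2007 genes passed there, and without replicate 3 of 7 d room air 1787 passed there, while the shared count stayed between 1050 and 1320 whichever goat was left out. With no pairing of the libraries (no replicate block) 620 genes were shared, 204 higher and 416 lower.

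Differences of 2-fold or more lay mostly on the RTN side. In both groups a log2 difference of 1 or more was reached by 18 genes higher and 212 genes lower in the VRC. A log2 difference of 2 or more, which is 4-fold, was reached by 8 higher and 94 lower genes, and one of 3 or more, which is 8-fold, by 5 higher and 46 lower genes. The 572 higher genes had a median log2 difference of 0.42 in 24 h and 0.44 in 7 d room air, and the 759 lower genes one of -0.64 and -0.69. The choice of the genes fixes these signs, and the median over all genes was -0.0047 and 0.0091.

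**Figure D1:**
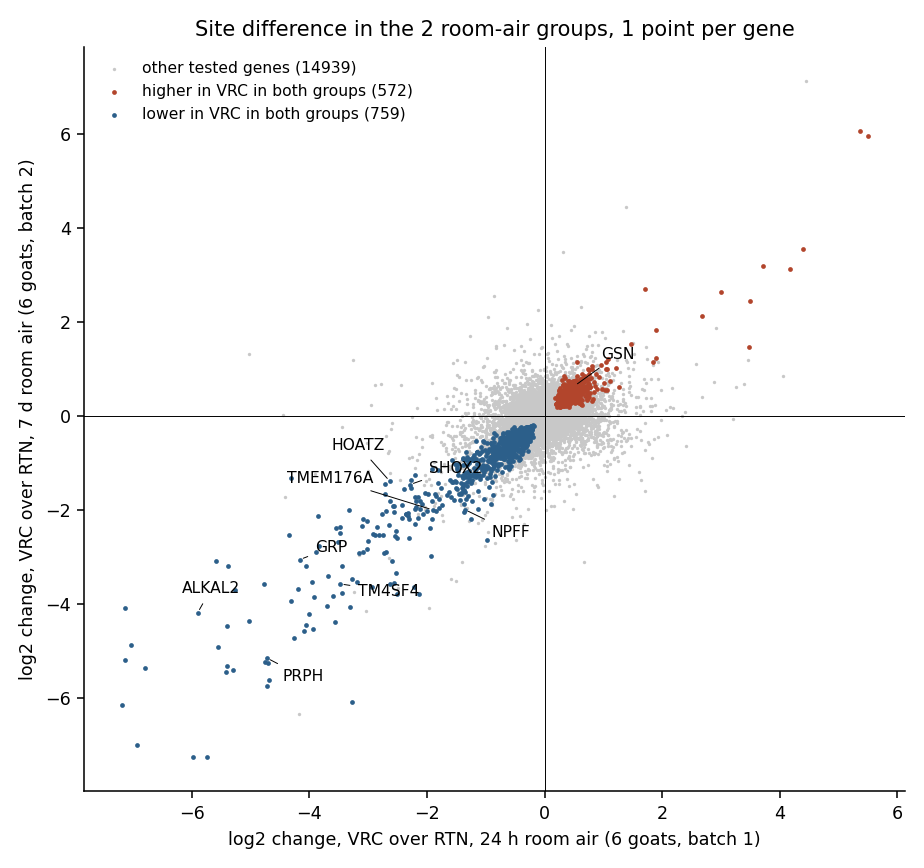
Log2 change of VRC over RTN for each of the tested genes, in 24 h room air of the first batch (horizontal axis) and 7 d room air of the second (vertical axis), 6 goats each. Red marks the 572 genes higher and blue the 759 genes lower in the VRC in both groups, and the blue points reach much farther from 0 than most red ones.

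By symbol, 24 of the 235 named genes were among the 1331 (10.2%, near the 8.18% of all tested genes), 10 higher and 14 lower in the VRC. The lower ones held secreted signals, a homeobox factor, an intermediate filament, signalling and membrane proteins and proteins of cilia.

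Of the secreted signals, GRP, gastrin-releasing peptide, a neuropeptide of bombesin type, was lower in the VRC in all 12 room-air goats. GRP measured 0.658 to 1.09 CPM (median 0.959) in the VRC of 24 h room air, against 8.77 to 27.5 CPM (median 14.2) in the RTN. In 7 d room air it measured 0.459 to 2.44 CPM (median 1.34) in the VRC, against 7.004 to 24.7 CPM (median 10.8) in the RTN. The sites did not overlap in either group, and the log2 difference was -4.16 (SE 0.32, edgeR, adjusted p = 5.53e-09) in 24 h and -3.05 (SE 0.30, adjusted p = 1.61e-05) in 7 d room air. NTS libraries ran from 0.382 to 49.5 CPM (median 2.18) in 24 h and 0.875 to 38.6 CPM (median 4.48) in 7 d room air, and thus reached above the RTN range.

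ALKAL2, a ligand of the receptor tyrosine kinases ALK and LTK, was near 0 in the VRC. It was counted 0 to 2 times per VRC library of 24 h room air, against 31 to 92 times per RTN library, which is 0 to 0.104 CPM (median 0.03402) in the VRC and 1.59 to 5.58 CPM (median 2.899) in the RTN. In 7 d room air the counts were 0 to 4 in the VRC, against 1 to 82 in the RTN. The groups overlapped in 7 d room air through 1 RTN library with 1 count, and all 12 goats had less in the VRC. NTS libraries of 24 h room air ran from 0 to 19.7 CPM (median 0.0996), and thus reached above the RTN range. The fitted log2 differences, -5.90 (SE 0.60, edgeR, adjusted p = 3.05e-08) and -4.18 (SE 0.34, adjusted p = 4.88e-08), depend on the prior count of the fit, since the VRC counts are so low.

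NPFF, the precursor of neuropeptide FF, showed the same direction at the least certain call of this group. It measured 0.2601 to 0.789 CPM (median 0.489) in the VRC of 24 h room air, against 0.199 to 2.97 CPM (median 1.34) in the RTN, and 0.127 to 0.845 CPM (median 0.501) in the VRC of 7 d room air, against 0.633 to 11.03 CPM (median 0.934) in the RTN. The sites overlapped in both groups. NTS libraries of 24 h room air ran from 0.213 to 46.4 CPM (median 0.644), and thus reached above the RTN range. NPFF differed by -1.36 (SE 0.46, edgeR, adjusted p = 0.0384) and -1.98 (SE 0.56, adjusted p = 0.0239) on the log2 scale. Without replicate 6 of 7 d room air, whose RTN library held the 11.0 CPM, the second value was -0.64 (edgeR, adjusted p = 0.192), and that call also ended without replicate 3, with voom, with the other dispersion estimate and with only the 12 room-air libraries of the batch. In 24 h room air the call ended without replicate 1, 2, 3 or 6, and in 5 of 9 other settings, among them no replicate block, DESeq2 and voom.

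SHOX2, a homeobox transcription factor of the developing hindbrain, limbs and heart, was lower in the VRC of all 12 goats and of every CO2 goat. SHOX2 measured 4.88 to 10.2 CPM (median 6.67) in the VRC of 24 h room air, against 14.4 to 57.01 CPM (median 34.99) in the RTN. In the second batch it measured 4.53 to 8.001 CPM (median 6.97) in the VRC of 7 d room air, against 11.5 to 25.3 CPM (median 18.2) in the RTN. The sites did not overlap in either group, with log2 differences of -2.29 (SE 0.33, edgeR, adjusted p = 0.000181) and -1.45 (SE 0.30, adjusted p = 0.00516). In the NTS the medians were 0.477 CPM in 24 h and 0.225 CPM in 7 d room air, so the 3 sites ran in the order NTS, VRC, RTN.

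PRPH, peripherin, an intermediate filament of motor neurons and other neurons with axons outside the brain, lay far apart between the sites. PRPH measured 3.79 to 19.6 CPM (median 6.03) in the VRC of 24 h room air, against 41.5 to 696 CPM (median 253) in the RTN. In 7 d room air it measured 4.45 to 6.88 CPM (median 6.18) in the VRC, against 25.4 to 735 CPM (median 259) in the RTN. No RTN library reached down to the VRC range in either group, but the RTN libraries themselves spread more than 10-fold, and the log2 difference was -4.72 (SE 0.92, edgeR, adjusted p = 0.00223) in 24 h and -5.14 (SE 0.81, adjusted p = 0.00163) in 7 d room air. NTS libraries ran from 3.56 to 566 CPM (median 5.02) in 24 h and 2.898 to 121 CPM (median 31.3) in 7 d room air, so some reached the RTN range. PRPH was the 1 of 16 listed motor neuron markers with a symbol. What motor neurons of nearby nuclei contribute to the other differences was not tested.

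Among proteins of neuronal signalling and growth, GNG3, a gamma subunit of neuronal G proteins, was lower in the VRC of all 12 goats. It measured 108 to 164 CPM (median 135) in the VRC of 24 h room air, against 156 to 281 CPM (median 219.7) in the RTN, and the sites overlapped. GNG3 differed by -0.68 (SE 0.11, edgeR, adjusted p = 2e-04) and -0.71 (SE 0.12, adjusted p = 0.000581). DPYSL3, a cytoskeletal protein of growing axons, measured 37.9 to 50.9 CPM (median 43.5) in the VRC of 24 h room air, against 56.1 to 78.1 CPM (median 72.4) in the RTN, without overlap. Its log2 difference was -0.70 (SE 0.11, edgeR, adjusted p = 4.21e-05) there and -0.35 (SE 0.09, adjusted p = 0.0158) in 7 d room air, where 1 goat of 6 went the other way, the sites overlapped, and the call ended without replicate 4 and with only the room-air libraries. NREP, a small protein of regenerating neurons, was lower in all 12 goats, by log2 differences of -0.50 and -0.39 (edgeR, adjusted p = 0.00486 and 0.0444). C15orf48, a small mitochondrial protein, was lower in 11 of 12 goats, by -0.87 and -0.46 (edgeR, adjusted p = 9.66e-05 and 0.0464). NREP and C15orf48 are the 2 remaining genes of the 14 lower ones and were named after their values were seen.

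S100A10, the partner of annexin A2 that carries membrane proteins to the cell surface, was lower in the VRC of all 12 goats. It measured 77.03 to 129.9 CPM (median 105) in the VRC of 24 h room air, against 165 to 319.6 CPM (median 199) in the RTN, and 86.1 to 127 CPM (median 101) in the VRC of 7 d room air, against 117 to 239.6 CPM (median 197) in the RTN. The sites did not overlap in 24 h room air and overlapped in 7 d room air. S100A10 differed by -1.10 (SE 0.14, edgeR, adjusted p = 1.54e-05) and -0.78 (SE 0.15, adjusted p = 0.00227) on the log2 scale.

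Membrane proteins TM4SF4, a four-span protein of the transmembrane 4 family, and TMEM176A differed more. TM4SF4 measured 0.352 to 2.304 CPM (median 0.892) in the VRC of 24 h room air, against 1.72 to 19.2 CPM (median 10.6) in the RTN, and 0.1796 to 0.966 CPM (median 0.769) in the VRC of 7 d room air, against 2.64 to 15.6 CPM (median 9.45) in the RTN. The sites overlapped in 24 h room air, where 5 of 6 goats had less in the VRC, and not in 7 d room air. TM4SF4 differed by -3.48 (SE 0.62, edgeR, adjusted p = 0.000743) and -3.56 (SE 0.34, adjusted p = 5.16e-06). Its NTS libraries ran from 0.395 to 166 CPM (median 0.653) in 24 h and 0.227 to 32.0 CPM (median 5.52) in 7 d room air, and thus reached above the RTN range. TMEM176A measured 1.19 to 4.005 CPM (median 1.996) in the VRC of 24 h room air, against 6.27 to 18.1 CPM (median 8.28) in the RTN, without overlap, and 1.02 to 4.22 CPM (median 1.66) in the VRC of 7 d room air, against 3.4 to 12.1 CPM (median 9.096) in the RTN, with overlap. It differed by -1.90 (SE 0.40, edgeR, adjusted p = 0.00309) and -1.99 (SE 0.29, adjusted p = 0.000281), and was lower in the VRC of all 12 goats.

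The 2 proteins of cilia and flagella in this set were also lower in the VRC. HOATZ measured 0.136 to 1.3 CPM (median 0.623) in the VRC of 24 h room air, against 1.5 to 9.58 CPM (median 3.02) in the RTN, without overlap, and 0.254 to 1.904 CPM (median 0.854) in the VRC of 7 d room air, against 1.52 to 4.81 CPM (median 2.67) in the RTN, with overlap. HOATZ differed by -2.63 (SE 0.36, edgeR, adjusted p = 9.29e-06) and -1.38 (SE 0.38, adjusted p = 0.019), in 11 of 12 goats. ROPN1L, a ropporin-like protein of the sperm tail and cilia, measured 11.7 to 16.5 CPM (median 13.4) in the VRC of 24 h room air, against 16.6 to 25.3 CPM (median 21.8) in the RTN, again without overlap, and 12.7 to 19.5 CPM (median 13.98) in the VRC of 7 d room air, against 17.6 to 26.9 CPM (median 21.8) in the RTN, with overlap. Its differences of -0.67 (SE 0.11, edgeR, adjusted p = 0.00018) and -0.50 (SE 0.14, adjusted p = 0.0171) were smaller and present in all 12 goats. At 7 d in room air the call of HOATZ ended without replicate 2 or 4 and with only the room-air libraries, and that of ROPN1L without replicate 5 and with voom. TTR, the 1 of 11 listed markers of ependyma and choroid plexus with a symbol, did not pass in either group (-0.39 and -0.26, edgeR, adjusted p = 0.907 and 0.828).

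**Figure D2:**
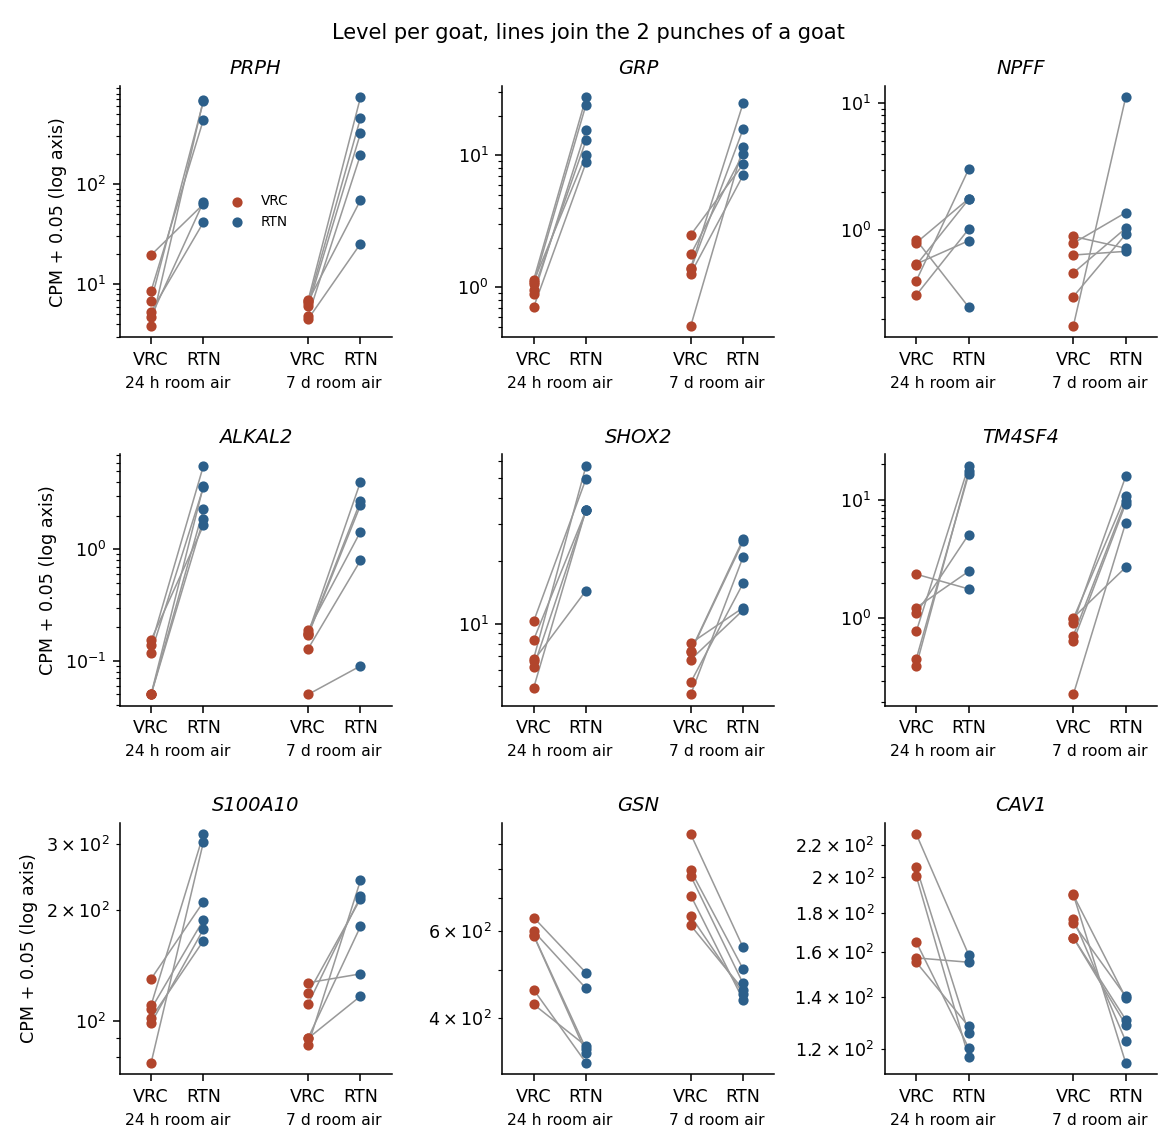
CPM plus 0.05 on a log axis for 9 genes in the VRC (red) and RTN (blue) punch of each room-air goat, lines joining the 2 punches of a goat, 24 h room air left and 7 d room air right in each panel. PRPH, GRP and SHOX2 separate the sites in both groups, NPFF overlaps, and GSN and CAV1 run the other way in all goats.

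Genes higher in the VRC had smaller differences. GSN, gelsolin, which severs actin filaments, was higher in the VRC of all 12 goats. GSN measured 426 to 639 CPM (median 588) in the VRC of 24 h room air, against 325 to 494 CPM (median 349) in the RTN. At 7 d of room air it measured 616 to 943 CPM (median 742) in the VRC, against 436 to 556 CPM (median 463) in the RTN. The sites overlapped in 24 h and not in 7 d room air, with log2 differences of 0.51 (SE 0.07, edgeR, adjusted p = 3.1e-05) and 0.64 (SE 0.08, adjusted p = 4.86e-05). MYLK, myosin light chain kinase, a second actin and myosin regulator, measured 33.7 to 52.2 CPM (median 42.1) in the VRC of 24 h room air, against 28.1 to 39.98 CPM (median 31.5) in the RTN. MYLK differed by 0.36 (SE 0.10, edgeR, adjusted p = 0.0095) and 0.64 (SE 0.13, adjusted p = 0.00291), in all 12 goats, and without replicate 6 of 24 h room air its call there ended.

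CAV1, caveolin-1, the scaffold of caveolae, which is abundant in vessels, measured 155 to 227 CPM (median 183) in the VRC of 24 h room air, against 117 to 159 CPM (median 127) in the RTN. At 7 d in room air it measured 167 to 190.0 CPM (median 175) in the VRC, against 115 to 140.3 CPM (median 130.0) in the RTN, without overlap. CAV1 was higher in the VRC of all 12 goats, by 0.45 (SE 0.10, edgeR, adjusted p = 0.00146) and 0.46 (SE 0.07, adjusted p = 0.000329). PLOD1, a lysyl hydroxylase of collagen, was higher in 11 of 12 goats, by 0.36 and 0.31 (edgeR, adjusted p = 0.00666 and 0.0165), the second call ending without replicate 4. The 6 listed markers of endothelium and pericytes with a symbol summed to 32.7 to 59.8 CPM in the VRC of 24 h room air, against 40.3 to 54.9 CPM in the RTN. At 7 d of room air the sum was 35.4 to 66.9 CPM in the VRC, against 39.5 to 58.0 CPM in the RTN. These sums overlapped in both groups.

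Enzymes of lipid and protein processing were among the rest. ABHD17B, which removes palmitate from membrane proteins, was higher in all 12 goats, by 0.39 (SE 0.08, edgeR, adjusted p = 0.000886) and 0.32 (SE 0.08, adjusted p = 0.0112). ACER2, a ceramidase of the Golgi, was higher in all 12, by 0.53 and 0.36 (edgeR, adjusted p = 0.00149 and 0.0198), the second call ending without replicate 1, 2 or 5. GSAP, the gamma-secretase activating protein, was higher in all 12, by 0.42 and 0.38 (edgeR, adjusted p = 0.00624 and 0.0177). FAM234A was higher in all 12, by 0.27 and 0.43 (edgeR, adjusted p = 0.0451 and 0.00108), and its first call ended without replicate 1, 3, 4 or 6. EFCAB14, a protein with calcium-binding EF hands, was higher in 11 of 12 goats, by 0.59 and 0.37 (edgeR, adjusted p = 1.74e-05 and 0.0439). The calls of EFCAB14 and of DENND5A in 7 d room air each ended in 5 of the 6 fits that left out 1 goat of that group. With only the room-air libraries of the batch, 6 of the 10 higher genes (ABHD17B, PLOD1, GSAP, ACER2, DENND5A and EFCAB14) lost their call in 7 d room air. With no replicate block 9 of the 10, all except GSN, lost the call of at least 1 room-air group.

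DENND5A, an activator of Rab GTPases of vesicle traffic, measured 302 to 447 CPM (median 375) in the VRC of 24 h room air, against 228 to 246 CPM (median 239) in the RTN, without overlap. At 7 d in room air it measured 221 to 273 CPM (median 241) in the VRC, against 189.6 to 226 CPM (median 211) in the RTN, with overlap. The log2 difference was 0.61 (SE 0.09, edgeR, adjusted p = 4.02e-05) in 24 h and 0.25 (SE 0.08, adjusted p = 0.03) in 7 d room air.

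Wide differences were also found in genes without a symbol. The ENSCHIG00000008881 gene measured 1.399 to 7.44 CPM (median 3.89) in the VRC of 24 h room air, against 0 to 0.235 CPM (median 0.0864) in the RTN, where 0 to 4 counts were found per library. Its level was highest in the NTS, with a median of 50.1 CPM, and ENSCHIG00000015611 ran in the same order, with medians of 24.4 CPM in the NTS, 1.88 CPM in the VRC and 0.0855 CPM in the RTN of 24 h room air. Both were higher in the VRC than in the RTN of all 12 room-air and all 18 CO2 goats. On the RTN side, ENSCHIG00000017591 measured 0 to 1.07 CPM (median 0.163) in the VRC of 24 h room air, against 6.22 to 22.4 CPM (median 12.3) in the RTN, and it was lower in the VRC of every goat. Its NTS libraries of 24 h room air ran from 0.107 to 43.6 CPM (median 0.824), and thus reached above the RTN range. ENSCHIG00000016996 had 0 to 2 counts per VRC library of 24 h room air, against 0 to 222 per RTN library. It was undetected in both punches of 1 goat of each room-air group and lower in the VRC of the other 10. All 4 passed in all 5 exposures, and the sources used here give them no name.

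Beyond the rule, the 1331 genes shared some features. Genes higher in the VRC had a median over genes of 72.6 CPM, against 26.1 CPM for those lower in the VRC and 19.0 CPM for all tested genes. CPM does not correct for gene length, so these medians describe the counts behind the calls and not transcript levels. All 12 room-air goats had more in the VRC for 404 of the 572 higher genes (70.6%, against 3.17% of all tested genes), and all 12 had less for 451 of the 759 lower ones (59.4%, against 3.42%). The sites did not overlap in either room-air group for 64 higher genes (11.2%, against 0.4% of all tested genes) and 100 lower ones (13.2%, against 0.615%). The rule used these libraries, so these medians and shares describe the set and support nothing. Set beside the NTS, the NTS mean lay nearer to the RTN mean in both room-air groups for 429 of the 572 higher genes and nearer to the VRC mean for 39. For the 759 lower genes it lay nearer to the VRC for 289 and nearer to the RTN for 261, and over all tested genes nearer to the VRC for 24.7% and to the RTN for 32.3%.

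The lists of cell type and pathway genes were thin by symbol. Of 27 lists, 14 had no member with a symbol, among them the HOX genes, the RTN and pre-Bötzinger markers, astrocytes, ion channels and the acid-base transporters. Both room-air groups agreed on SHOX2 of the positional factors (1 of 38 with a symbol), PRPH of the motor neuron markers, and GRP and NPFF of the neuropeptides (2 of 22), all lower in the VRC. The single genes GABRB2 of the inhibitory neuron list and TTR passed in neither group, nor did HBQ1 and HEMGN of the blood list. The other lists were called in 24 h room air alone. OLIG1 and OLIG2 stand in the authors' 24 h VRC table, which uses the VRC libraries of 24 h room air. Of the 95 named genes in that table, 74 were called higher and 2 lower in the VRC of 24 h room air. In 7 d room air 1 was higher and 1 lower. Calls of such genes in 24 h room air are thus not independent of how they were named. OLIG1 and OLIG2, transcription factors of the oligodendrocyte lineage and 2 of 16 on that list, summed to 96.3 to 146 CPM in the VRC of 24 h room air, against 26.1 to 69.3 CPM in the RTN. At 7 d of room air they summed to 13.6 to 46.8 CPM in the VRC, against 25.7 to 106 CPM in the RTN. OLIG1 differed by 1.70 (edgeR, adjusted p = 0.00786) in 24 h and -0.71 (adjusted p = 0.42) in 7 d room air, and OLIG2 by 1.23 (adjusted p = 0.011) and -0.52 (adjusted p = 0.466).

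Of the 4 microglial and myeloid genes with a symbol, AIF1, a calcium-binding protein of microglia, and NCF4, a subunit of the phagocyte oxidase, were lower in the VRC of 24 h room air. AIF1 differed by -0.50 (edgeR, adjusted p = 0.00133) there and -0.11 (adjusted p = 0.622) in 7 d room air, and NCF4 by -0.70 (adjusted p = 0.0159) and 0.32 (adjusted p = 0.127). Of the 6 vessel genes FOXQ1, NOS3, the endothelial nitric oxide synthase, and ACVRL1, an endothelial receptor, were higher in 24 h room air, and ACKR1, a chemokine receptor of venules, lower. NOS3 differed by 0.36 (edgeR, adjusted p = 0.0281), ACVRL1 by 0.47 (adjusted p = 0.0398) and ACKR1 by -0.86 (adjusted p = 0.00221), and in 7 d room air by 0.26, 0.17 and -0.36 (adjusted p = 0.253, 0.507 and 0.134). Over all tested genes 18.6% passed in 24 h room air, 9.61% being lower in the VRC. Of 12 ribosomal protein genes RPS15A alone passed, with a difference of -0.48 (edgeR, adjusted p = 0.021), with a list median of -0.28 in 24 h and 0.13 in 7 d room air. Of 10 oxidative phosphorylation genes NDUFA2 alone passed, with a difference of -0.33 (edgeR, adjusted p = 0.0227), with a list median of -0.27 and -0.03. Without single goats of 24 h room air these calls ended for NOS3 (replicate 1, 2, 4 or 5), ACVRL1 (1, 2 or 4), NCF4 (1 or 6), RPS15A and NDUFA2 (1, 2, 4 or 6 each). EGLN1 of 2 hypoxia-inducible genes and the clock repressor NR1D2 of its list were higher in 24 h room air, NR1D2 by 0.91 (edgeR, adjusted p = 0.00378), with -0.20 (adjusted p = 0.589) in 7 d room air. NCF4, FOXQ1, EGLN1 and NR1D2 also stand in the authors' 24 h VRC table, so their calls are not independent of how they were named.

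The site difference was then read after CO2, in other goats. Nearly all of the 1331 genes had the same sign there, and most passed again at 3 h and 7 d. After 3 h of CO2, 1306 had the same sign (98.1%) and 849 passed with it (63.8%, against 15.5% of all tested genes in either direction). After 24 h of CO2, 1288 had the same sign (96.8%) and 552 passed (41.5%, against 7.56%). After 7 d of CO2, 1309 had the same sign (98.3%) and 715 passed (53.7%, against 7.93%). No gene of the set passed with the opposite sign at any time, by edgeR. Room-air and CO2 libraries of a batch shared a fit and its estimate of the spread. The shares that passed, here and by direction below, are thus not fully independent of how the genes were chosen. Same-sign shares over all tested genes were not counted for the CO2 groups. The 24 h CO2 group, which holds the shallowest library of all 60, called 1230 genes in all, 774, 814, 672 and 668 without replicate 1, 4, 5 or 6. The 7 d CO2 group called 1290, and 696, 668 and 709 without replicate 1, 2 or 3.

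By direction, 354 of the 572 higher genes passed again after 3 h of CO2 (61.9%, against 6.39% of all tested genes), 199 after 24 h (34.8%, against 2.59%) and 293 after 7 d (51.2%, against 3.36%). Of the 759 lower genes 495 passed again after 3 h (65.2%, against 9.15%), 353 after 24 h (46.5%, against 4.97%) and 422 after 7 d (55.6%, against 4.57%). The median log2 difference of the higher genes was 0.31, 0.23 and 0.30 after 3 h, 24 h and 7 d of CO2, and that of the lower genes -0.52, -0.48 and -0.50. Each lies nearer to 0 than in room air, and the set was chosen on its room-air values. Per goat, at least 15 of the 18 CO2 goats had more in the VRC for 431 of the higher genes (75.3%, against 10.4% of all tested genes) and less for 589 of the lower ones (77.6%, against 11%). All 18 had that direction for 164 higher genes (28.7%, against 1.41%) and 215 lower ones (28.3%, against 2.02%).

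**Figure D3:**
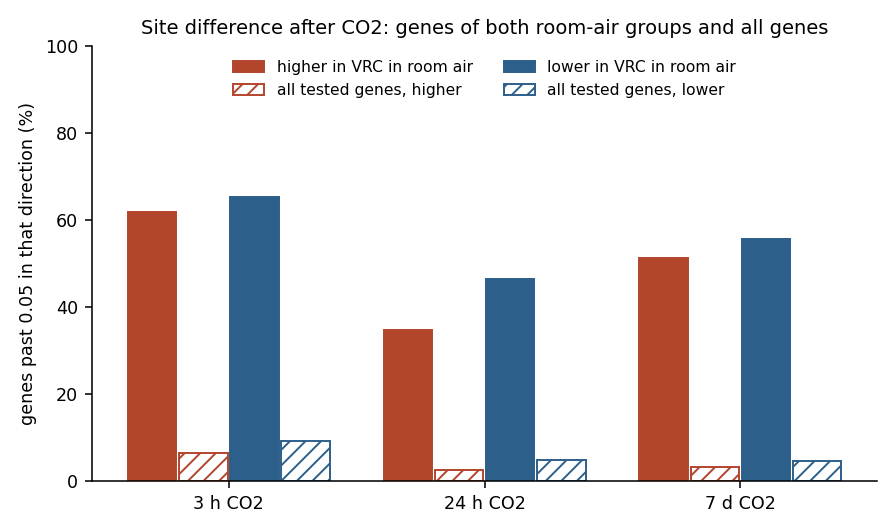
Percent of genes past an adjusted p of 0.05 in the stated direction after 3 h, 24 h and 7 d of CO2, for the 572 higher and 759 lower genes of room air (filled bars) and for all 16270 tested genes (hatched bars). The filled bars lie between 34.8% and 65.2% and the hatched ones between 2.59% and 9.15%. Room-air and CO2 libraries of a batch shared an estimate of the spread, so the filled bars are not fully independent of the choice of genes.

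Across all 5 exposures 397 genes passed with the same sign, 141 higher in the VRC (0.867% of those tested) and 256 lower (1.57%), while 316 of the 1331 passed in no CO2 group. Of the 235 named genes the 397 hold 8, ALKAL2, GRP, HOATZ, PRPH, S100A10, SHOX2, TM4SF4 and TMEM176A, all lower in the VRC. None of the 141 higher genes has a symbol. GRP differed by -2.35, -3.48 and -3.09 on the log2 scale after 3 h, 24 h and 7 d of CO2 (edgeR, adjusted p = 8.1e-06, 9.21e-07 and 2.16e-05). SHOX2 differed by -2.40, -2.28 and -1.33 (edgeR, adjusted p = 0.00014, 0.000937 and 0.0208). PRPH differed by -5.45, -3.29 and -3.84 (edgeR, adjusted p = 0.000888, 0.0335 and 0.0116), lower in the VRC of 17 of 18 CO2 goats.

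None of the 10 named higher genes passed in all 5 exposures, while 141 of all 572 higher genes and 256 of all 759 lower genes did. GSN passed after 3 h and 7 d of CO2 (0.26 and 0.26, edgeR, adjusted p = 0.0171 and 0.0481) and differed by 0.15 after 24 h (adjusted p = 0.258). CAV1 likewise passed after 3 h and 7 d (0.46 and 0.26, edgeR, adjusted p = 0.00164 and 0.0334), with 0.26 after 24 h (adjusted p = 0.092). GSAP passed after 24 h and 7 d (0.46 and 0.37, edgeR, adjusted p = 0.0102 and 0.032). EFCAB14, ACER2, ABHD17B and PLOD1 passed after 3 h, and MYLK, FAM234A and DENND5A after no CO2 exposure. Among the lower genes, ROPN1L and NPFF passed in no CO2 group, with -0.14, -0.14 and -0.08 for ROPN1L (edgeR, adjusted p = 0.438, 0.537 and 0.795).

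**Figure D4:**
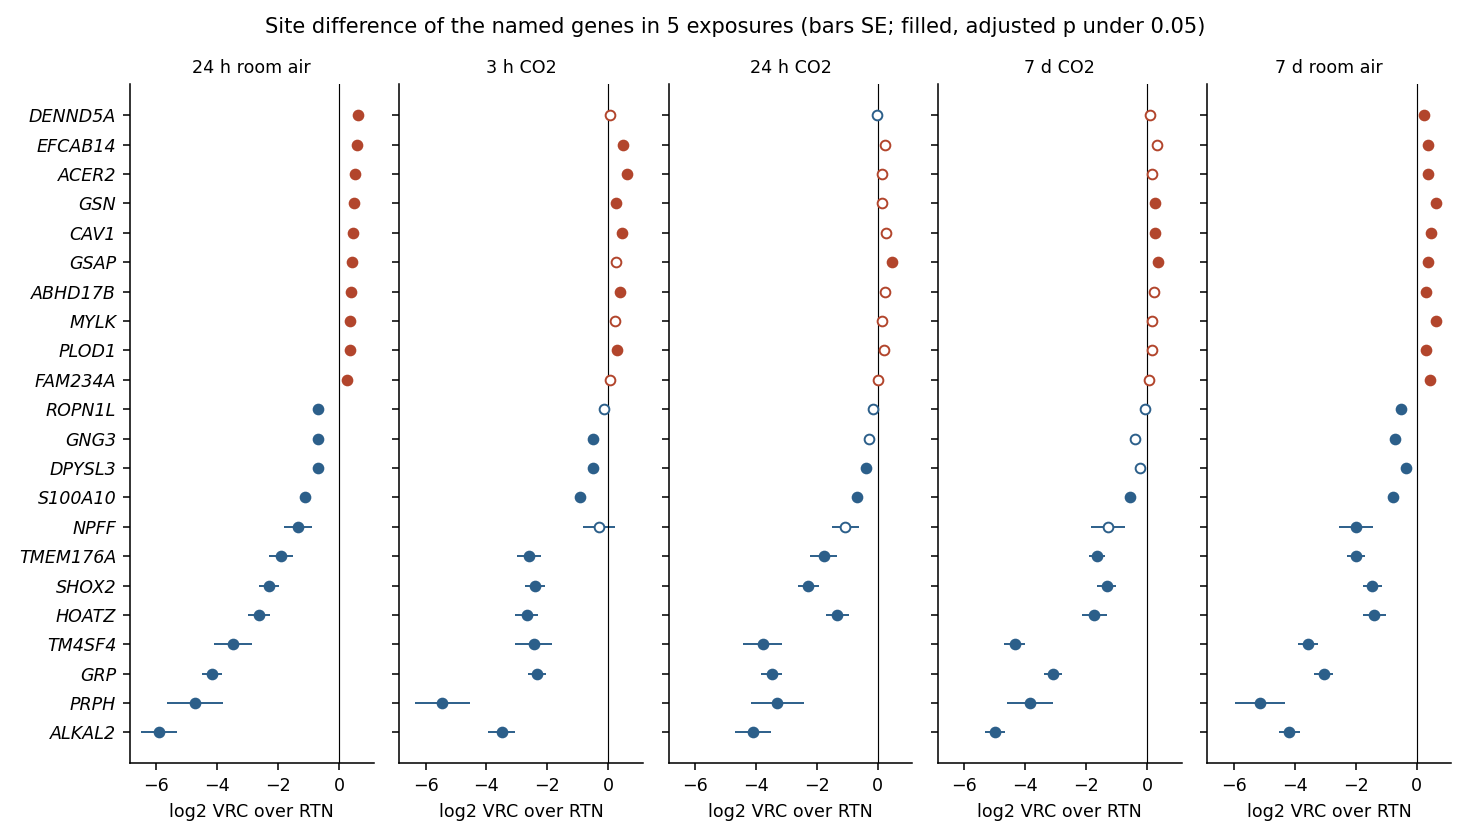
Log2 change of VRC over RTN with its SE for the 22 genes the naming rule picked among those called with the same sign in both room-air groups. Panels show 24 h room air, 3 h, 24 h and 7 d of CO2, and 7 d room air, with points filled where the adjusted p is under 0.05. Genes without a symbol are not shown. The 8 genes filled in every panel all lie left of 0, and the red genes higher in the VRC pass in some CO2 panels and not in others.

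The change of the site difference with CO2 was tested within each batch, over all genes. After 3 h of CO2 less the 24 h room-air goats it passed for 98 genes (0.602%), 0 higher and 98 lower, so VRC over RTN was lower after CO2 in every one. With all 60 libraries in 1 fit this count was 5, and by DESeq2 it was 244, 7 higher and 237 lower. No goats were kept 3 h in room air, so CO2 and length of exposure cannot be told apart in the 3 h test. After 24 h of CO2 it passed for 197 genes (1.21%), 5 higher (0.0307%) and 192 lower (1.18%), and by DESeq2 and voom 338 and 348. Both tests share the 24 h room-air libraries. Of the 98 genes 79, and of the 197 genes 154, were themselves higher in the VRC of those libraries, against 8.96% of all tested genes. The tests subtract the site difference of those libraries, so this overlap is in part built in and supports nothing. Of the 1331 genes of both room-air groups 4 (0.301%, against 0.602% of all tested genes) and 12 (0.902%, against 1.21%) were among them, of which DENND5A alone has a symbol. After 7 d of CO2, against 7 d room air, 0 genes passed by edgeR (lowest adjusted p 0.798, with 1005 genes at an unadjusted p under 0.05), 0 by DESeq2 and 0 by voom. Leaving out a goat moved the first count to between 22 and 279: it was 64, 29, 22 and 61 without replicate 1, 3, 4 or 6 of 24 h room air, 193 and 279 without replicate 2 or 3 after 3 h of CO2, and 38, 34 and 23 without replicate 4, 5 or 6 after it. The second count was 104 without replicate 4 of 24 h room air and 125, 123 and 123 without replicate 1, 5 or 6 after 24 h of CO2.

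VEGFB, a growth factor of vessels, measured 28.7 to 39.2 CPM (median 30.6) in the VRC of 24 h room air, against 15.99 to 21.6 CPM (median 18.2) in the RTN. After 3 h of CO2 it measured 12.9 to 22.3 CPM (median 15.96) in the VRC, against 18.98 to 29.7 CPM (median 25.1) in the RTN, and after 24 h of CO2 15.2 to 25.6 CPM (median 18.3) in the VRC, against 23.4 to 33.1 CPM (median 26.2) in the RTN. VEGFB was thus higher in the VRC in 24 h room air (0.79, edgeR, adjusted p = 9.83e-06) and lower after 3 h and 24 h of CO2 (-0.52 and -0.50, adjusted p = 0.00168 and 0.00565). The site difference changed by -1.32 (SE 0.15, edgeR, adjusted p = 6.74e-05) at 3 h and -1.29 (SE 0.15, adjusted p = 0.00012) at 24 h. In the second batch VEGFB did not pass (-0.03 and -0.07, edgeR, adjusted p = 0.95 and 0.873), with 20.1 ± 3.81 CPM in the VRC and 21 ± 6.43 CPM in the RTN after 7 d of CO2, and 17.97 ± 5.75 CPM in the VRC and 19.3 ± 6.94 CPM in the RTN of 7 d room air (mean ± SD, n = 6 each).

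EGLN1, the prolyl hydroxylase that senses oxygen, averaged 79 ± 9.62 CPM in the VRC and 49.5 ± 6.23 CPM in the RTN of 24 h room air (SD, n = 6 each). After 3 h of CO2 it averaged 44.8 ± 11.5 CPM in the VRC and 67.5 ± 16.1 CPM in the RTN, and after 24 h 42.2 ± 3.16 CPM in the VRC and 68.6 ± 7.91 CPM in the RTN. The change of the site difference was -1.26 (SE 0.19, edgeR, adjusted p = 0.00792) and -1.36 (SE 0.19, adjusted p = 0.000824). At 7 d in room air EGLN1 averaged 35.7 ± 6.81 CPM in the VRC and 45.4 ± 9.94 CPM in the RTN. NRG2, neuregulin-2, a ligand of ErbB receptors, averaged 18.5 ± 3.302 CPM in the VRC and 7.53 ± 1.29 CPM in the RTN of 24 h room air, and its site difference changed by -1.81 (SE 0.31, edgeR, adjusted p = 0.0119) at 3 h. With all 60 libraries in 1 fit the 3 h change of EGLN1 (adjusted p = 0.0704) and of NRG2 (adjusted p = 0.0921) did not pass. PPM1D, a phosphatase induced by p53, and CCDC85C changed by -2.22 and -2.18 at 24 h (SE 0.31 and 0.31, edgeR, adjusted p = 0.000667 and 0.000667). PPM1D averaged 21.4 ± 4.48 CPM in the VRC of 24 h room air, while the other VRC groups averaged 10.3 ± 5.45, 7.38 ± 0.743 and 8.51 ± 2.24 CPM after 3 h, 24 h and 7 d of CO2 and 8.33 ± 1.77 CPM in 7 d room air. These 5 genes had their highest VRC mean in 24 h room air. They and DENND5A stand in the authors' 24 h VRC table, which uses the VRC libraries of 24 h room air. This pattern is thus not independent of how the genes were named. DENND5A followed the same pattern, with a change of -0.55 (SE 0.13, edgeR, adjusted p = 0.0461) at 3 h and -0.66 (SE 0.13, adjusted p = 0.00848) at 24 h.

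**Figure D5:**
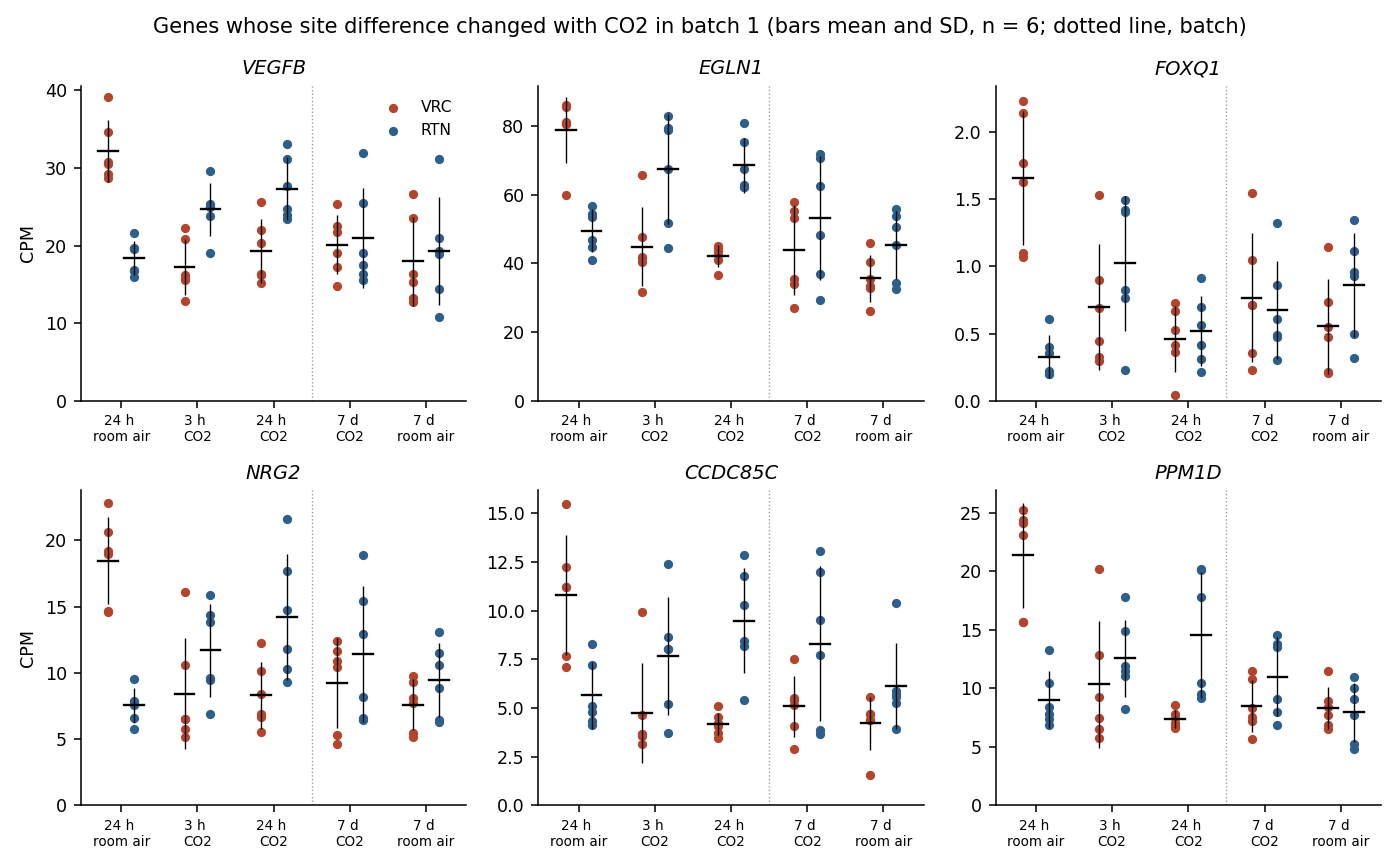
CPM of 6 genes whose site difference after 3 h or 24 h of CO2 differed from that in 24 h room air. Points are libraries of the VRC (red) and RTN (blue), with mean and SD of 6 libraries. A dotted line stands between the batches. The VRC mean of 24 h room air stands above its RTN mean in all 6 panels, and in the other 4 exposures no VRC mean reaches the VRC mean of 24 h room air. All 6 genes stand in the authors' 24 h VRC table, which uses these VRC libraries, so the pattern is not independent of their choice.

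A direct test of the site difference in 24 h room air less that in 7 d room air, over all 60 libraries, passed for 2 genes (0.0123%), both higher in the VRC at 24 h, with 2002 genes at an unadjusted p under 0.05. FOXQ1, a forkhead transcription factor, was counted 13 to 63 times per VRC library of 24 h room air, against 4 to 10 times per RTN library. At 7 d of room air FOXQ1 was counted 5 to 38 times in the VRC, against 8 to 26 times in the RTN. Its site difference was 2.40 in 24 h and -0.63 in 7 d room air, and these differed by 3.03 (SE 0.53, edgeR, adjusted p = 0.0175). The other gene has no symbol. FOXQ1 stands in the authors' 24 h VRC table, which uses the VRC libraries of 24 h room air. The count was 47 by DESeq2 and 1 by voom, and without single goats 0 to 51. FOXQ1 no longer passed with no replicate block, with voom, with the other dispersion estimate, or without replicate 1, 3 or 4 of 24 h room air or replicate 1, 2 or 5 of 7 d room air. The number of genes was 1, 6, 0, 1 and 19 without replicate 1, 2, 3, 4 or 6 of 24 h room air, and 0, 0, 1 and 51 without replicate 1, 2, 5 or 6 of 7 d room air.

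Genes called in 1 room-air group alone were read for their sign in the other, where 68.3% of all tested genes had the same sign. Of 1687 genes called in 24 h room air alone 1319 had the same sign in 7 d room air (78.2%), and of 1397 called in 7 d room air alone 1228 had it in 24 h (87.9%). Of the 79 named genes higher in the VRC of 24 h room air alone, 73 stand in that 24 h VRC table (the authors' deposited table), and 27 were above 0 in 7 d room air. Their median log2 difference was 0.78 in 24 h room air, -0.42, -0.60 and -0.28 after 3 h, 24 h and 7 d of CO2, and -0.18 in 7 d room air. The authors picked 73 of these 79 on a contrast with the same VRC libraries of 24 h room air, so this excess is not independent of how they were chosen. Of the 140 named genes outside that table, 15 were higher (10.7%, against 8.96% of all tested genes) and 34 lower (24.3%, against 9.61%) in the VRC of 24 h room air. In 7 d room air 11 were higher (7.86%, against 8.1%) and 17 lower (12.1%, against 8.68%). Many of these 140 were picked on contrasts with the NTS libraries of 24 h room air. Some were picked on a 3 h contrast that uses the VRC or RTN libraries of 24 h room air. The 140 are thus not independent of how they were named either.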

How the data were processed

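Bulk RNA-seq of VRC and RTN punches was analysed. Per the labels' protocols, RNA from a lipid tissue kit went into SMART-Seq v4 and Nextera XT libraries, sequenced as pairs of 100 bp. Tools named in the submitters' processing notes are edgeR 4.6, featureCounts 2.0.6, STAR 2.7.10b and fastp 0.24.0. For the build and the annotation nothing is stated there, so no coordinates are printed. The authors deposited raw counts per Ensembl gene for 90 libraries, and 0 columns were left out. Their deposited tables of CO2 comparisons hold log2 fold changes and log2 mean abundances, a likelihood ratio (a score), and p-values, and were used only for gene symbols. By mean abundance, all 342 entries found a single gene each in a refit of the 90 libraries (17730 genes with at least 5 counts), and the 93 entries given as identifiers matched themselves, with log2 fold changes within 0.00151 of those deposited. That gave 238 symbols, 235 of them tested.

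The deposited counts went through edgeR 4.0.16 (R 4.3.3) with TMM factors, filterByExpr (minimum count 10) over the groups of the 60 VRC and RTN libraries, glmQLFit with legacy=FALSE and robust=TRUE, the quasi-likelihood F test and Benjamini-Hochberg adjustment over all tested genes. The design held the goat as a block and 1 site effect per exposure. Each batch was fitted alone (36 and 24 libraries), except the direct test between the room-air groups. Fold changes are log2, VRC over RTN. The SE beside them was derived from the test, as the absolute log2 change over the square root of the F statistic. CPM used TMM factors over all 90 libraries. The fit was checked on simulated data.

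The labels do not say that equal replicate numbers mark the same goat, and libraries were paired by that number: in 29 of 30 goats the VRC library correlated best with the RTN library of the same number (r of deviations from group means 0.0535 to 0.535, median 0.296, against a median of -0.0458 for other numbers). The exception was replicate 5 of 7 d room air (r 0.0535), which is among the 12 room-air pairs. No replicates were alike within sampling noise. The members and the 27 gene lists were chosen with earlier results of these data known. The rule names, among genes past 0.05 with the same sign in both room-air groups and a mean of at least 1 CPM, the 12 higher and 12 lower with a symbol and the smallest larger-of-2 p-values, the genes of lowest p in the tests of a changed site difference, list members past 0.05, and 2 identifiers per direction. Several genes it asks for carry no symbol here and were not analysed. Alternatives were DESeq2 1.42.0, limma 3.58.1 voom, no block, RLE factors, other filters, other libraries in the fit, another dispersion estimate and leaving out each goat. A minimum log2 change of 0.5 was added after seeing the data.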

Additional observations from a re-analysis of the deposited data

Results flagged for a closer look

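In groups of 6 libraries, 16 of 252 sets of values of named genes held a library far from the others. Chance gives about 1 in 20, which is near this share. The sets are not independent, since they share libraries and hold both levels and site differences of a gene. Replicate 6 of 7 d room air did so most often in the RTN, with 11.0 CPM of NPFF (others 0.633 to 1.33), 10.4 CPM of CCDC85C (others 3.91 to 5.88), 65.0 CPM of RPS15A (others 24.6 to 35.6) and 373 CPM of NDUFA2 (others 152 to 203). Its NPFF log2 difference between the sites was -4.2, against -0.88 to 0.2 in the other goats. Replicate 2 of that group had 19.2 CPM of ACKR1 in the RTN (others 8.04 to 11.2), an ACKR1 log2 difference of -0.97 (others -0.31 to -0.12) and a TM4SF4 log2 difference of -1.1 (others -3.55 to -2.95). In the VRC of 7 d room air DPYSL3 measured 61.2 CPM in replicate 5 (others 40.4 to 46.9) and CCDC85C 1.57 CPM in replicate 1 (others 4.38 to 5.57).

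In 24 h room air PRPH measured 19.6 CPM in the VRC of replicate 3 (others 3.79 to 8.54), EGLN1 60 CPM in the VRC of replicate 5 (others 80.6 to 86.1) and ENSCHIG00000017591 1.07 CPM in the VRC of replicate 5 (others 0 to 0.238). On the RTN side TMEM176A measured 18.1 CPM in replicate 5 (others 6.27 to 9.64), AIF1 56.8 CPM in replicate 5 (others 77.6 to 84.1) and HOATZ 9.58 CPM in replicate 6 (others 1.5 to 3.99).

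The site difference itself differed between exposures in 98 genes after 3 h of CO2 less 24 h room air, in 197 after 24 h of CO2 less 24 h room air and in 2 in 24 h less 7 d room air (edgeR, adjusted p under 0.05). At 3 h the named log2 changes of the difference were -1.32 for VEGFB, -1.26 for EGLN1, -2.94 for FOXQ1 and -1.81 for NRG2. At 24 h they were -1.29 for VEGFB, -2.18 for CCDC85C, -2.22 for PPM1D and -1.36 for EGLN1. FOXQ1 differed by 3.03 between 24 h and 7 d room air.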

How the results depend on the processing

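The 1331 genes shared by the room-air groups stayed within 1.5 times that number under DESeq2, voom, RLE factors, both other filters, the other dispersion estimate and both other choices of libraries (966 to 1496), and fell to 620 with no replicate block. Without the pairing of the goats the counts were 1723 in 24 h and 1202 in 7 d room air, 1423, 495 and 407 after 3 h, 24 h and 7 d of CO2, and 0 for 24 h less 7 d room air. In 7 d room air 1761 genes passed with only the 12 room-air libraries. DESeq2 called 244, 338 and 47 genes for the changed site difference at 3 h, at 24 h and between the room-air groups. Voom called 2142 and 2273 after 24 h and 7 d of CO2, 348 for the change at 24 h and 1 between the room-air groups. The fit of all 60 libraries left 5 genes for the change at 3 h, and the other dispersion estimate 0 between the room-air groups. With a log2 change of at least 0.5 as well, 1369, 1260, 1273, 687 and 675 genes passed in 24 h room air, 7 d room air and after 3 h, 24 h and 7 d of CO2, and 564 in both room-air groups, 112 higher and 452 lower. The causes of these changes were not tested.

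Leaving out 1 goat at a time gave 2007 to 2913 genes in 24 h room air, 1787 to 3445 in 7 d room air, 1050 to 1320 shared, 1751 to 2644 after 3 h, 668 to 904 after 24 h and 668 to 1092 after 7 d of CO2. The change at 3 h ranged from 22 to 279, that at 24 h from 104 to 215, that at 7 d stayed at 0, and that between the room-air groups ran from 0 to 51. Of 647 values of named genes under other settings 42 were no longer past 0.05, 17 of them with no replicate block, and of 492 values without 1 goat 52 were not. None changed sign, and 49 of 73 calls held in every fit. Depth limits genes with few counts in the VRC, such as ALKAL2 and ENSCHIG00000016996, whose fold depends on the prior count.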
